A study of Mus musculus with 6 samples.

Results

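Blood-forming stem cells and their first multipotent descendants are purified from mouse marrow by a handful of surface proteins, and 10 genes behind those sorting schemes or behind reporter mice were read here: Kit, Ly6a, Slamf1, Cd48, Cd34, Flt3, Procr, Esam, Fgd5 and Ctnnal1. Each symbol matched a single Ensembl gene among the 55487 in the deposited count files. The genes were taken by name, as markers that define or divide the LSK cells, with earlier results of these libraries known. RNA came from the marrow of 3 mice lacking Brm (BrmKO, called Brm-/- in the study's design) and 3 wild-type mice (WT), all on the background spelled C56Bl/6 in the labels. Per the labels' protocols, femur and tibia marrow was depleted of lineage-positive cells and sorted for cells with no lineage antigen and with c-KIT and SCA1 on their surface, the LSK cells. Cells went straight into lysis buffer, and polyadenylated RNA was amplified with SMART-Seq v4, a full-length kit that marks neither strand nor molecule. The labels name no age, no Brm allele and no number of cells sorted, and each library stands for 1 mouse as far as the design text says.

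Kit encodes the receptor for stem cell factor, and Ly6a encodes SCA1, a small protein held on the membrane by a lipid anchor. Together they define the LSK gate, which holds a minority of true stem cells among many multipotent progenitors. Other proteins divide the gate further. Stem cells carry the SLAM receptor CD150 (Slamf1) and lack its relative CD48, and they gain the receptor FLT3 and, in adult mice, CD34 as they become multipotent progenitors. Procr (EPCR), Esam, Fgd5 and Ctnnal1 (alpha-catulin) are enriched in stem cells, and the last 2 encode proteins inside the cell that became known through reporter mice.

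The libraries held 29184342 to 33288221 reads in genes in BrmKO and 28013994 to 36457027 in WT. Smarca2, the current name of Brm (chromosome 19, 26605050 to 26778322, GRCm38), fell to 0.151 times its WT level, with 26.9, 26.5 and 27.9 CPM (read counts scaled to library size) in BrmKO libraries against 174, 213 and 150 CPM in WT libraries (log2 fold change -2.72 ± 0.13 SE, edgeR, adjusted p = 2.97e-05). Both libraries numbered 3 had more reads outside genes, 9.29% in BrmKO and 8.41% in WT, against 5.79% to 6.61% in the other 4. Some lineage antigen genes had few reads. Cd3e had 0 reads in all 6 libraries, Ly6g reached at most 0.116 CPM, and Itgam lay between 4.18 and 6.80 CPM. Other genes of the lineage marker lists were higher. Cd79b stood at 57.3 ± 6.57 CPM in BrmKO and 60.2 ± 10.7 CPM in WT (SD, n = 3 each). Ighm stood at 583 ± 35.5 CPM in BrmKO and 869 ± 366 CPM in WT (SD, n = 3 each). How far the sort removed each lineage was not tested. The granule enzyme gene Mpo, read here as a marker of multipotent and committed progenitors, was also abundant. It stood at 3870 ± 589 CPM in BrmKO and 3756 ± 208 CPM in WT (SD, n = 3 each), and which cells made it was not tested. In bulk RNA, fewer cells of a type and less RNA per cell cannot be told apart.

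Slamf1 (ENSMUSG00000015316.11, 171767127 to 171801184) and Cd48 (ENSMUSG00000015355.13, 171682009 to 171705258) lie close together on the plus strand of chromosome 1, which also carries Cd34 (ENSMUSG00000016494.9, 194938819 to 194961279). The receptor tyrosine kinase genes Kit (ENSMUSG00000005672.12, 75574916 to 75656722, plus strand) and Flt3 (ENSMUSG00000042817.15, 147330741 to 147400489, minus strand) share chromosome 5. Ly6a lies on chromosome 15 (ENSMUSG00000075602.10, 74994877 to 74998031), Procr on chromosome 2 (ENSMUSG00000027611.12, 155751117 to 155755471), Esam on chromosome 9 (ENSMUSG00000001946.14, 37528078 to 37538319), Fgd5 on chromosome 6 (ENSMUSG00000034037.14, 91978878 to 92076004) and Ctnnal1 on chromosome 4 (ENSMUSG00000038816.14, 56810935 to 56865188). In the GENCODE M21 annotation, only Cd34 shares exon bases with another gene, 2.03% of them with Gm16897 on the opposite strand. None of the 10 had a near-identical copy, defined as 95% identity over at least 50% of the transcript. Ly6a came closest, with 85.6% identity to its relative Ly6i over 84.0% of its length.

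Levels of the 10 genes were first compared per exon length, as TPM (reads scaled for exon length and then for the library total), a level and not a difference. They fell into a high set and a low set. Cd48 was highest, at 705 ± 78.7 TPM in BrmKO and 793 ± 127 TPM in WT. Cd34 stood at 506 ± 13.4 and 481 ± 11.2 TPM, Kit at 386 ± 10.6 and 372 ± 39.1 TPM, and Flt3 at 307 ± 7.84 and 282 ± 11.2 TPM in BrmKO and WT (SD, n = 3 each). All 4 of these lay at or above the 96.0th percentile of genes tested in WT. Many of the multipotent progenitors, the majority of the gate, are known to carry CD48, CD34 or FLT3. Their part in these levels was not tested.

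The second set was led by Ly6a, although its protein was used to choose the cells. Ly6a reached 89.3 ± 14.6 TPM in BrmKO and 72.1 ± 17.7 TPM in WT, the 79.3th percentile in WT and 3.90-fold below Flt3 there. Esam followed at 64.4 ± 8.57 TPM in BrmKO and 57.4 ± 13.2 TPM in WT, and Procr at 41.4 ± 9.48 and 33.7 ± 6.57 TPM. Ctnnal1, Fgd5 and Slamf1 were lowest, with 7.28 ± 0.441, 10.3 ± 1.26 and 4.82 ± 1.97 TPM in BrmKO and 10.8 ± 3.28, 10.8 ± 1.89 and 6.44 ± 1.39 TPM in WT. The span between Cd48 and Slamf1 was 123-fold in WT. Of the 9 neighbouring places in the WT order, the libraries overlapped at 2, Ly6a with Esam and Ctnnal1 with Fgd5. BrmKO libraries kept the order at 8 of 10 places and exchanged Ctnnal1 and Fgd5. With the longest transcript as the length, Cd34 stood above Cd48 in WT, at 856 and 594 TPM, while the other 8 kept their places.

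**Figure D1:**
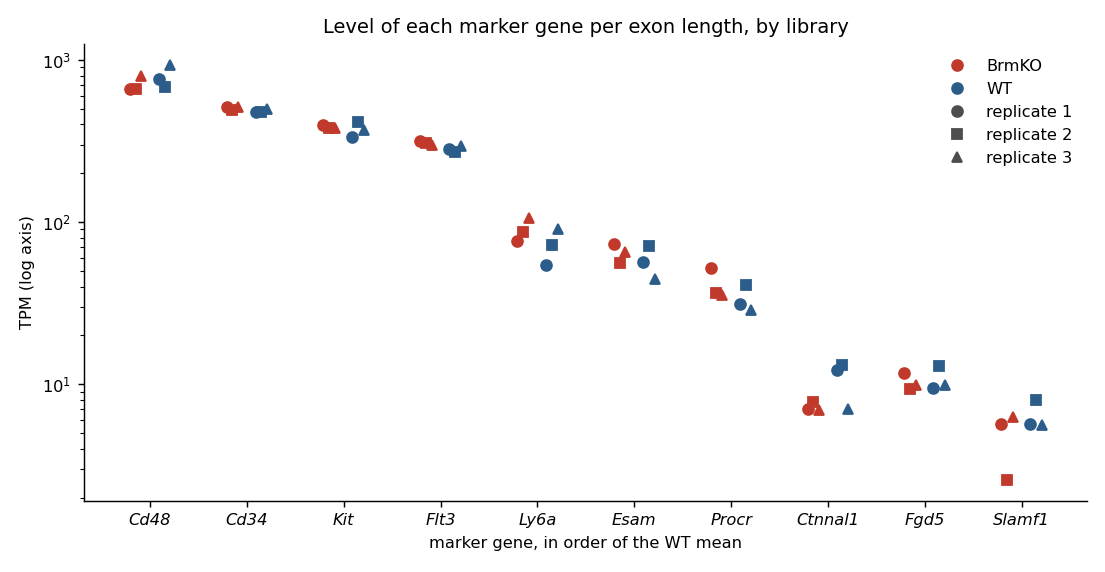
Level of the 10 marker genes in TPM on a log axis, in order of the WT mean; each symbol is a library, red for BrmKO and blue for WT. Cd48, Cd34, Kit and Flt3 lie between 270 and 932 TPM, and every value of the other 6 genes is at or below 105 TPM.

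The question the study's design poses is what loss of Brm does to LSK cells, and for the genes that define these cells no change passed the test. The cells were sorted on c-KIT and SCA1 protein, so for Kit and Ly6a the comparison holds only within the gate. Of the 10, 0 passed at an adjusted p under 0.05 (edgeR's quasi-likelihood test, Benjamini-Hochberg over 15691 genes), and 0 passed with DESeq2, which called 0.739% of the genes it adjusted, or with limma-voom. Over all genes tested with edgeR 0.14% passed, 0.0829% higher and 0.0574% lower, so a count of 0 among 10 is no different from the background. Ctnnal1 alone had an unadjusted p under 0.05, against 5.85% of all genes, 3.14% higher and 2.71% lower in BrmKO. Estimates were above 0 for 6 genes and below 0 for 4, with a median log2 fold change of 0.06, beside -0.01 over all genes. At 6 of the 10 genes (Kit, Cd48, Cd34, Flt3, Esam and Fgd5) the 95% interval of the change, taken gene by gene, left out 1.5-fold in either direction.

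**Figure D2:**
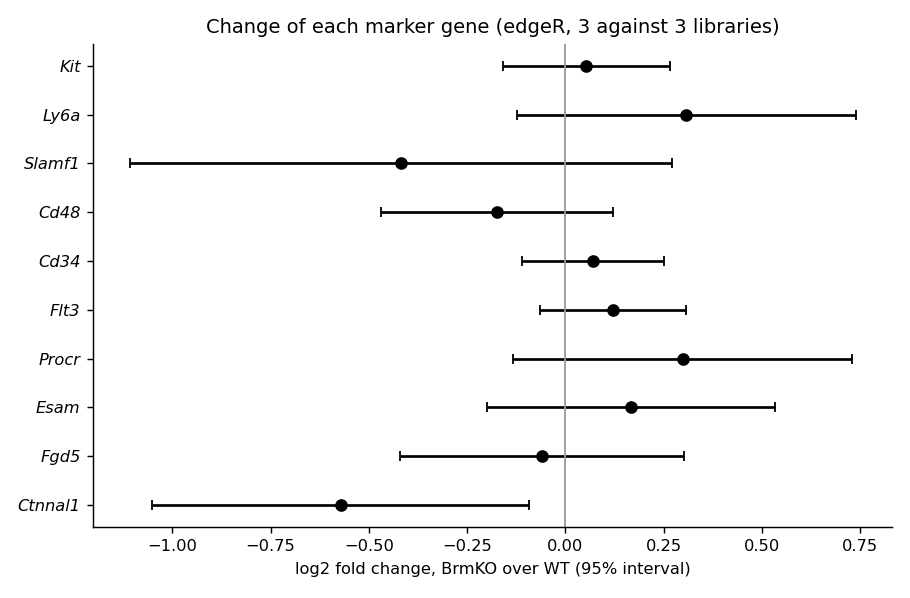
Log2 fold change of each marker gene, BrmKO over WT, with its 95% interval (edgeR, 3 against 3 libraries). Ctnnal1 is the only gene whose interval leaves out 0, from -1.05 to -0.09, and the widest interval, that of Slamf1, runs from -1.11 to 0.27.

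The genes of the gate come first. Kit had 1004, 976 and 949 CPM in BrmKO libraries 1 to 3, against 849, 1031 and 942 CPM in WT libraries 1 to 3. The BrmKO libraries all lay inside the WT range. The log2 fold change was 0.05 ± 0.10 (SE, adjusted p = 0.999, edgeR), and the 95% interval of the ratio ran from 0.895 to 1.20. Kit was backed by 26783 to 33504 reads per library, and its coefficient of variation was 2.82% in BrmKO and 9.67% in WT, where counting alone gives 0.575% and 0.574%. Without WT replicate 1, the lowest library, the estimate was -0.01. The sort selected c-KIT protein, so the RNA levels of Kit describe cells already inside the gate.

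Ly6a had 26.0, 29.9 and 35.7 CPM in BrmKO libraries, against 18.7, 24.3 and 31.1 CPM in WT libraries. The highest library was BrmKO replicate 3 and the lowest WT replicate 1, but WT replicate 3 exceeded 2 BrmKO libraries, so the groups overlapped. Its log2 fold change was 0.31 ± 0.19 (adjusted p = 0.960, edgeR), with an interval of the ratio from 0.918 to 1.67. Without WT replicate 1 the estimate was 0.14, and without WT replicate 3 it was 0.51 (adjusted p = 0.461). Since the sort selected SCA1 protein, these RNA levels describe cells already inside the gate.

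In the mouse Ly6a responds to interferon, and a list of 30 interferon-stimulated genes was read beside it. Of these, 29 had estimates above 0, against 48.8% of all genes, and their median log2 fold change was 0.25. None passed in edgeR or limma-voom, and Irf7 passed with DESeq2. In edgeR 9 had an unadjusted p under 0.05, all higher in BrmKO, against 3.14% of all genes. Irf7, which encodes a transcription factor of the interferon response, had 60.7, 58.1 and 63.5 CPM in BrmKO libraries against 40.6, 46.8 and 45.3 CPM in WT libraries, with no overlap (log2 fold change 0.46 ± 0.10, adjusted p = 0.218, edgeR). Ifit1 and Isg15, both encoding interferon-induced antiviral proteins, had log2 fold changes of 0.76 ± 0.23 and 0.67 ± 0.21. WT replicate 1 was lowest for Ly6a and for the summed list, which came to 2628, 2933 and 2621 CPM in BrmKO libraries against 2310, 2626 and 2642 CPM in WT libraries. These sums overlapped. The list holds Ly6e, its most abundant gene and the only one with an estimate below 0. With Ly6e left out, a choice made after its value was seen, the sums did not overlap. They were then 1762, 1822 and 1796 CPM in BrmKO libraries against 1327, 1586 and 1712 CPM in WT libraries. Of all single genes tested, 11.1% also had groups that did not overlap. The part of this list in the level of Ly6a was not tested.

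Ly6e, named beside Ly6a in the label of the SCA1 antibody, encodes a related membrane protein. Ly6e had 867, 1111 and 825 CPM in BrmKO libraries against 983, 1040 and 930 CPM in WT libraries. Per length its level was 9.93 ± 2.31 times that of Ly6a in BrmKO and 13.3 ± 3.61 times in WT (SD, n = 3 each), and the libraries overlapped. Of 15 LY6 family genes in the files, Ly6a among them, 7 were tested and 0 passed in edgeR, DESeq2 or limma-voom. Their median log2 fold change was -0.15, and 1 gene had an unadjusted p under 0.05, against 5.85% of all genes. That gene was Gpihbp1, which encodes a capillary protein that carries lipoprotein lipase, at 0.234, 0 and 0.698 CPM in BrmKO libraries against 3.09, 0.646 and 1.20 CPM in WT libraries. Ly6c2, a monocyte surface gene, had a log2 fold change of -0.15 ± 0.11 (adjusted p = 0.999, edgeR), which was -0.06 without BrmKO replicate 1 and -0.08 without WT replicate 1.

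**Figure D3:**
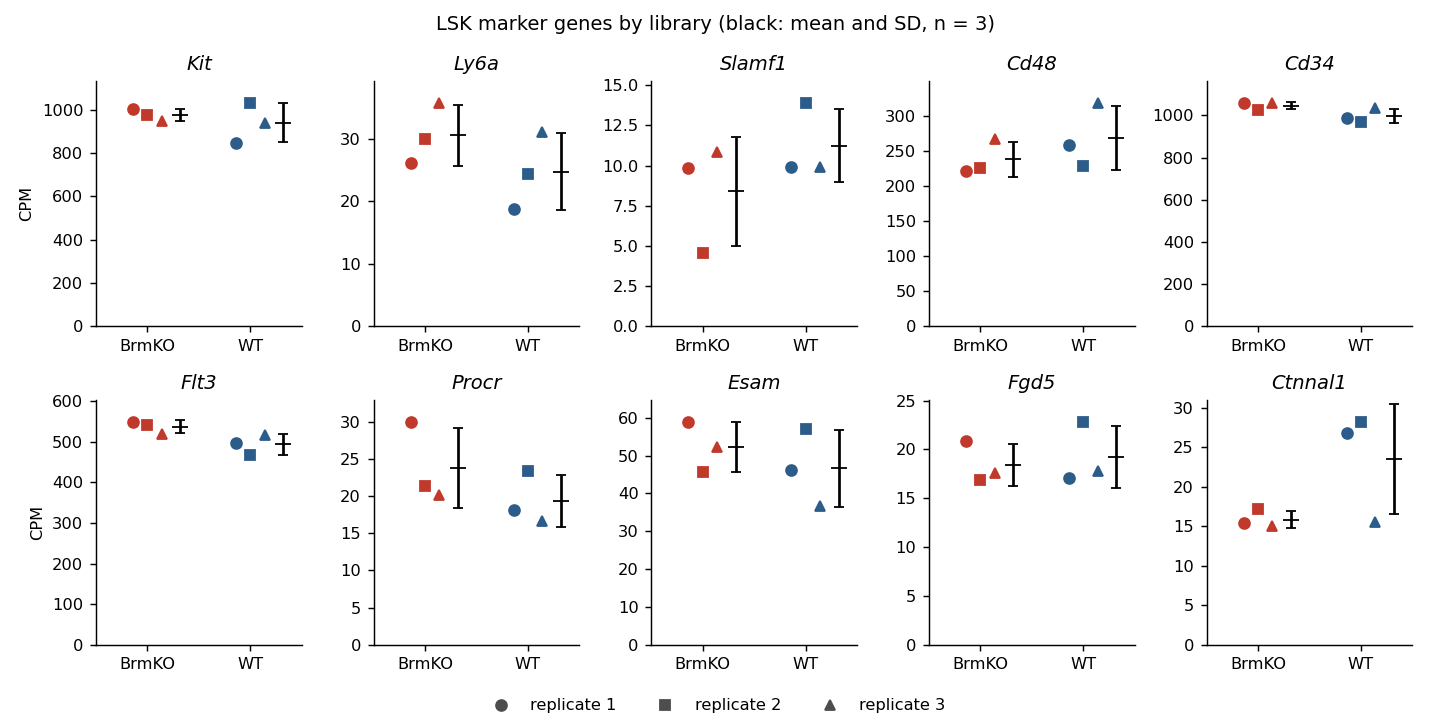
CPM of each marker gene in each library, BrmKO in red to the left and WT in blue, with the mean and SD (n = 3) in black; every axis starts at 0. Only Flt3 has groups that do not meet, its lowest BrmKO library at 520 CPM and its highest WT library at 517 CPM.

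SLAM genes separate stem cells from the progenitors within the gate. Slamf1 had 9.83, 4.53 and 10.8 CPM in BrmKO libraries (294, 130 and 372 reads), against 9.91, 13.9 and 9.92 CPM in WT libraries (359, 451 and 282 reads). BrmKO replicate 2 stood alone at the bottom and WT replicate 2 at the top, while the other 4 lay between 9.83 and 10.8 CPM. The log2 fold change was -0.42 ± 0.31 (adjusted p = 0.999, edgeR), and the interval of the ratio, 0.464 to 1.21, still allows a level in BrmKO less than 0.5 times that in WT. Without BrmKO replicate 2 the estimate was -0.12, the value nearest 0 among the left-out libraries. Slamf1 varied most of the 10 genes in BrmKO, with a coefficient of variation of 40.3% where counting alone gives 6.14%.

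Cd48 had 221, 226 and 266 CPM in BrmKO libraries against 259, 228 and 318 CPM in WT libraries. WT replicates 1 and 2 lay within the BrmKO range, and replicate 3 was highest in each genotype. The log2 fold change of -0.17 ± 0.13 did not pass (adjusted p = 0.999, edgeR), with the ratio between 0.722 and 1.09. Without WT replicate 3 it was -0.03.

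CD150 is read against CD48 in SLAM sorting, and the transcripts were set side by side in the same way. Per length, Cd48 exceeded Slamf1 by 116-, 258- and 127-fold in BrmKO libraries and by 135-, 85.0- and 166-fold in WT libraries. BrmKO replicate 2 again stood apart, and the remaining BrmKO libraries lay within the WT range. The log2 ratio of Slamf1 to Cd48 was -7.29 ± 0.63 in BrmKO and -6.95 ± 0.49 in WT (SD, n = 3 each), a difference of -0.34 that is smaller than either SD.

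Slamf1 had the widest range of the 10 genes over the 6 libraries, 1.60 on the log2 scale. The genes whose centred log2 CPM profiles were nearest to it were Fam198b, Gm16861 and Gm43714, with root mean square differences of 0.11, 0.14 and 0.14 over 6 libraries, beside 0.49 for the profile of Slamf1 itself. Fam198b had 2.04, 1.01 and 2.73 CPM in BrmKO libraries against 2.37, 2.83 and 2.25 CPM in WT libraries, with BrmKO replicate 2 lowest. The genes were picked for this likeness, so the shared low value is no independent evidence on Slamf1. All 3 were expressed at under 4 CPM.

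Of 12 SLAM receptor and adaptor genes in the files, Slamf1 and Cd48 among them, 9 were tested, and 0 passed in edgeR, DESeq2 or limma-voom. An unadjusted p under 0.05 was seen once in each direction, against 3.14% higher and 2.71% lower over all genes. The median log2 fold change was -0.17. Slamf7, a receptor of lymphocytes and macrophages, had 1.94, 5.09 and 3.75 CPM in BrmKO libraries against 1.27, 1.85 and 1.48 CPM in WT libraries, with no overlap (log2 fold change 1.23 ± 0.39, adjusted p = 0.605, edgeR). Sh2d1b1, which encodes the EAT-2 adaptor that docks on SLAM receptors, had 0.702, 1.18 and 1.45 CPM in BrmKO libraries against 2.40, 1.60 and 2.57 CPM in WT libraries (-0.97 ± 0.40, adjusted p = 0.798). Cd244a, the receptor for CD48 and a marker of progenitors within the gate, had 43.0, 52.3 and 53.5 CPM in BrmKO libraries and 55.7, 55.9 and 60.6 CPM in WT libraries. Its groups did not overlap either, but its change of -0.21 ± 0.11 did not pass (adjusted p = 0.912, edgeR) and was -0.11 without BrmKO replicate 1. Groups that did not overlap were also seen for 11.1% of all genes tested. Slamf7, Sh2d1b1 and Cd244a were named for having the smallest p of the list, which favours such genes. Ly9, which encodes CD229 and is used to subdivide SLAM-sorted stem cells, differed little between libraries, with 54.1 to 60.0 CPM over all 6 and a log2 fold change of 0.02 ± 0.09.

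**Figure D4:**
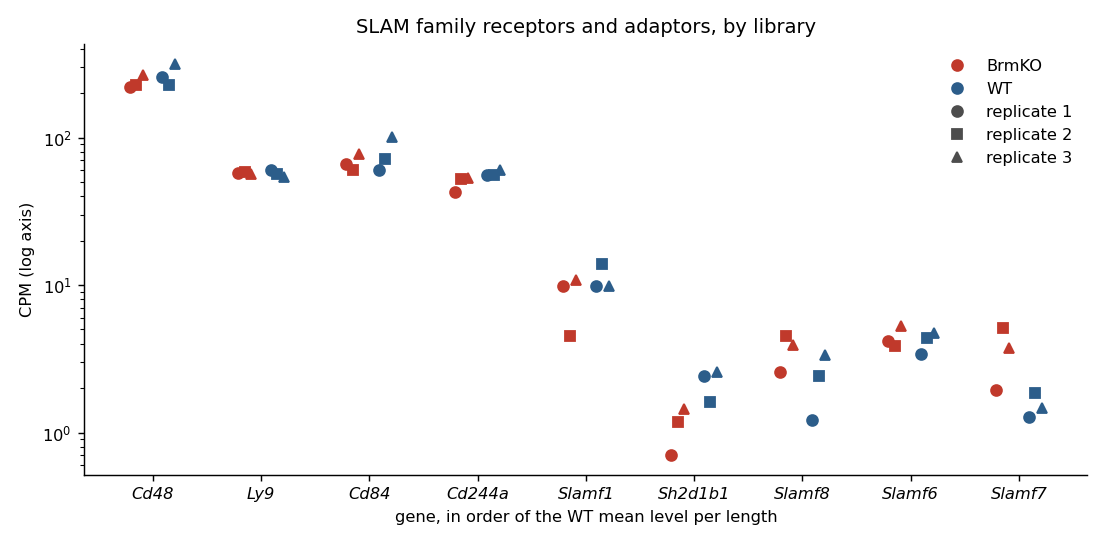
CPM of the 9 tested SLAM family receptors and adaptors in each library on a log axis, red for BrmKO and blue for WT. Slamf7 lies higher in all 3 BrmKO libraries, Sh2d1b1 and Cd244a lower in all 3, and Slamf1 is lowest in BrmKO replicate 2 at 4.53 CPM. Over all genes tested, 5.69% lay higher and 5.37% lower in all 3 BrmKO libraries.

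Cd34 and Flt3 mark the step out of the stem cell pool. Cd34 encodes a sialomucin of stem cells and endothelium and was the steadiest of the 10, at 1057, 1026 and 1057 CPM in BrmKO libraries against 987, 969 and 1033 CPM in WT libraries. WT replicate 3 lay just above BrmKO replicate 2, so the groups met. The log2 fold change was 0.07 ± 0.08 (adjusted p = 0.999, edgeR), and the interval of the ratio, 0.927 to 1.19, was the narrowest obtained for the 10 genes.

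Flt3 had 550, 543 and 520 CPM in BrmKO libraries against 497, 467 and 517 CPM in WT libraries. It was the only one of the 10 whose groups did not overlap, which 11.1% of all genes tested also showed, 5.69% higher and 5.37% lower in BrmKO, and the gap between them was small. The change was 0.12 ± 0.08 (adjusted p = 0.990, edgeR), with the ratio between 0.956 and 1.24. Without both libraries numbered 3 it was 0.18 (adjusted p = 0.373). Per length, Flt3 stood at 0.606 ± 0.0231 of the Cd34 level in BrmKO and 0.585 ± 0.0136 in WT (SD, n = 3 each).

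Ligands and partners of both kinases were read from a list of 22 genes that holds Kit and Flt3 themselves, of which 21 were tested. None passed in edgeR, and 3 had an unadjusted p under 0.05, all lower in BrmKO, against 2.71% of all genes. The median log2 fold change was -0.09. Pdgfra, a related receptor of stromal cells, had 0 reads over the BrmKO libraries and 67 over the WT libraries, and so was at least 21.4-fold lower by a floor of 3 counts over the group (adjusted p = 0.0849 in edgeR, while DESeq2, limma-voom and edgeR with no low-count filter called it). Kitl, the stem cell factor that stromal and endothelial cells make for KIT, had 0.234, 0 and 0.291 CPM in BrmKO libraries against 0.856, 1.72 and 0.316 CPM in WT libraries. Tek, the receptor TIE2 of stem cells and endothelium, had 31.5, 28.8 and 23.7 CPM in BrmKO libraries against 39.0, 47.6 and 28.1 CPM in WT libraries, and its groups overlapped (-0.45 ± 0.19, adjusted p = 0.811, edgeR). Without WT replicate 2 the change of Tek was -0.26.

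Markers of progenitors in and beyond the gate did not pass in edgeR or limma-voom either. Of 24 tested, 3 had an unadjusted p under 0.05, all lower in BrmKO, against 2.71% of all genes, and the median was -0.04. Cd52, a surface glycoprotein gene of lymphoid cells, had 34.4, 37.0 and 38.0 CPM in BrmKO libraries against 50.5, 45.9 and 64.0 CPM in WT libraries (-0.55 ± 0.13, adjusted p = 0.317 in edgeR, passed with DESeq2). Il7r, the interleukin-7 receptor of lymphoid progenitors, had 8.39, 8.08 and 11.1 CPM in BrmKO libraries against 17.0, 15.9 and 12.5 CPM in WT libraries. The groups did not overlap for Cd52 or for Il7r, whose change was -0.72 ± 0.19 (adjusted p = 0.432, edgeR). Such a lack of overlap was seen for 11.1% of all genes tested.

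The genes enriched in stem cells differed among themselves in sign. Procr encodes the receptor of activated protein C and had 30.1, 21.4 and 20.2 CPM in BrmKO libraries against 18.1, 23.4 and 16.7 CPM in WT libraries. BrmKO replicate 1 was highest, WT replicate 2 exceeded the other 2 BrmKO libraries, and the log2 fold change was 0.30 ± 0.19 (adjusted p = 0.971, edgeR). It was 0.10 without BrmKO replicate 1. The interval of the ratio ran from 0.912 to 1.66.

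Esam, an adhesion molecule gene of stem cells, endothelium and platelets, had 59.0, 45.7 and 52.4 CPM in BrmKO libraries against 46.3, 57.0 and 36.6 CPM in WT libraries. WT replicate 3 was lowest, and the groups overlapped (0.17 ± 0.16, adjusted p = 0.999, edgeR). Without that library its change was 0.02. Fgd5, which encodes an exchange factor for the GTPase CDC42, had 20.9, 16.8 and 17.6 CPM in BrmKO libraries against 17.1, 22.8 and 17.8 CPM in WT libraries. Its change of -0.06 ± 0.16 (adjusted p = 0.999, edgeR) turned to 0.08 without WT replicate 2, the highest library.

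Ctnnal1, which encodes a catenin-related cytoskeletal protein, showed the largest estimate and the smallest p of the 10 genes. It had 15.3, 17.1 and 15.0 CPM in BrmKO libraries (459, 491 and 517 reads), against 26.8, 28.2 and 15.5 CPM in WT libraries (969, 917 and 442 reads). The BrmKO libraries lay close together, and WT replicate 3 fell among them while the other WT libraries stood well above. The log2 fold change was -0.57 ± 0.21 (unadjusted p = 0.0243, adjusted p = 0.748, edgeR), and the interval of the ratio ran from 0.482 to 0.938. It was place 508 of 15691 genes by p. Without WT replicate 3 it was -0.80 (adjusted p = 0.0881), without both libraries numbered 3 it was -0.76 (adjusted p = 0.118), and without WT replicate 2 it was -0.42. WT replicate 3 is 1 of the 2 libraries with more reads outside genes, and BrmKO replicate 3, the other, had 15.0 CPM.

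Beyond the 10, 40 other genes used as stem cell markers or reporters were all tested, and 0 passed in edgeR, DESeq2 or limma-voom. Unadjusted p was under 0.05 for 2 higher and 6 lower genes, against 3.14% higher and 2.71% lower over all genes. The median log2 fold change was -0.08. Cd63, a tetraspanin gene, had 104, 108 and 116 CPM in BrmKO libraries against 129, 133 and 140 CPM in WT libraries (-0.29 ± 0.08, adjusted p = 0.504, edgeR). Slc22a3, an organic cation transporter gene, had 127, 137 and 129 CPM in BrmKO libraries against 176, 172 and 142 CPM in WT libraries (-0.32 ± 0.10, adjusted p = 0.605). Vldlr, the very-low-density lipoprotein receptor, had 38.0, 25.6 and 33.6 CPM in BrmKO libraries against 26.3, 18.2 and 23.1 CPM in WT libraries (0.52 ± 0.18, adjusted p = 0.697). Cd63 and Slc22a3 had groups that did not overlap, as did 11.1% of all genes tested, whereas the ranges of Vldlr met.

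Several of the 10 genes are also made by other marrow cells, so marker lists of those cells were summed in each library. Endothelial cells express Cd34, Esam, Procr and Fgd5. The 15 endothelial markers summed to 354, 341 and 343 CPM in BrmKO libraries against 474, 387 and 357 CPM in WT libraries, all BrmKO libraries lying lower. Of these sums Pecam1 took 152, 165 and 140 CPM in BrmKO libraries and 156, 158 and 146 CPM in WT libraries. None of the 15 passed in edgeR or limma-voom, 3 passed with DESeq2, against 0.739% of all genes it adjusted, and none was at 0 in every library. In edgeR 5 had an unadjusted p under 0.05, all lower in BrmKO, against 2.71% of all genes. Estimates were above 0 for 1 and below 0 for 14, where 48.8% of all genes were above 0. Stab1 and Kdr, genes of sinusoidal and other endothelium, had log2 fold changes of -2.29 ± 0.56 and -1.43 ± 0.37, and of -1.32 and -0.89 without WT replicate 1. The median was -1.20, and -0.39 without WT replicate 1. The endothelial cadherin Cdh5 had 0.234, 0.244 and 0.960 CPM in BrmKO libraries against 5.25, 0.154 and 1.02 CPM in WT libraries. The 4 shared genes had changes of 0.07, 0.17, 0.30 and -0.06 (Cd34, Esam, Procr and Fgd5), and 0.06, 0.16, 0.25 and -0.14 without WT replicate 1, where the endothelial sum was highest. The part of endothelial cells in the levels of these 4 genes was not tested.

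Megakaryocytes and platelets express Slamf1 and Esam. Their 12 markers summed to 744, 734 and 514 CPM in BrmKO libraries against 919, 1081 and 787 CPM in WT libraries, all BrmKO libraries lying lower. Of these sums Itga2b, also in the list of other stem cell genes, took 414, 412 and 258 CPM in BrmKO libraries and 506, 569 and 340 CPM in WT libraries. Of 11 tested, all had estimates below 0, and Pf4, a platelet chemokine gene, fell (-0.60 ± 0.09, adjusted p = 0.0391, edgeR). That call was lost whenever any 1 library was left out, with adjusted p between 0.0564 and 0.291, and without both libraries numbered 3 (-0.54, adjusted p = 0.0684), and held in 7 of 14 alternatives. In edgeR 4 of the 11 genes had an unadjusted p under 0.05, all lower in BrmKO, against 2.71% of all genes. DESeq2 called 4 of the 11 genes, against 0.739% of all genes it adjusted, and limma-voom called 1. Treml1, a receptor gene of platelet granules, followed at -0.81 ± 0.17 (adjusted p = 0.191). Mast cells express Kit, and their 11 markers summed to 174, 245 and 196 CPM in BrmKO libraries against 272, 241 and 253 CPM in WT libraries, which overlapped. Cpa3, a mast cell protease gene, had 68.3, 102 and 78.3 CPM in BrmKO libraries against 136, 123 and 129 CPM in WT libraries (-0.64 ± 0.14, adjusted p = 0.218, edgeR), and passed with DESeq2 and with no low-count filter. In the main edgeR test 0 of the 10 tested passed, and 5 estimates were above 0 and 5 below, with a median of 0.04. Of these genes, 1 higher and 3 lower had an unadjusted p under 0.05, against 3.14% and 2.71% of all genes. Mcpt4 and Tpsb2, protease genes of connective tissue mast cells, had estimates of 2.18 ± 0.72 and 2.55 ± 1.13. Stromal cells carry SCA1 in part, and their 13 markers summed to 202, 175 and 280 CPM in BrmKO libraries against 381, 236 and 198 CPM in WT libraries, with overlap. Of these sums Pdgfrb took 152, 164 and 136 CPM in BrmKO libraries and 149, 163 and 167 CPM in WT libraries. Of 12 tested, 0 passed in edgeR and 6 had an unadjusted p under 0.05, all lower in BrmKO against 2.71% of all genes, led by Pdgfra, which DESeq2 and limma-voom called, and the bone sialoprotein gene Ibsp. The matrix genes Col1a1, Col1a2 and Dcn had estimates above 0, at 1.41 ± 1.68, 0.68 ± 1.30 and 1.05 ± 0.90. The stromal median was -2.29, and -1.13 without WT replicate 1. Dendritic cells express Flt3, which is itself in their list of 10. The other 9 markers summed to 579, 924 and 907 CPM in BrmKO libraries against 202, 292 and 594 CPM in WT libraries, where BrmKO replicate 1 lay below WT replicate 3. None of the 9 passed in edgeR, DESeq2 or limma-voom, and 5 had an unadjusted p under 0.05, all higher in BrmKO against 3.14% of all genes. They were led by H2-Ab1 and Cd74, with changes of 1.18 ± 0.42 and 1.19 ± 0.43. These genes took 223 and 195 of the 579 CPM in BrmKO replicate 1. Of the 9 estimates, 7 were above 0 and 2 below, those of Itgax (-0.11 ± 0.28) and Siglech (-0.34 ± 1.09). Without WT replicate 3, H2-Ab1 passed (1.73, adjusted p = 0.0367, edgeR) and Cd74 was at 1.71. The part of any of these cells in the levels of the 10 genes was not tested.

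**Figure D5:**
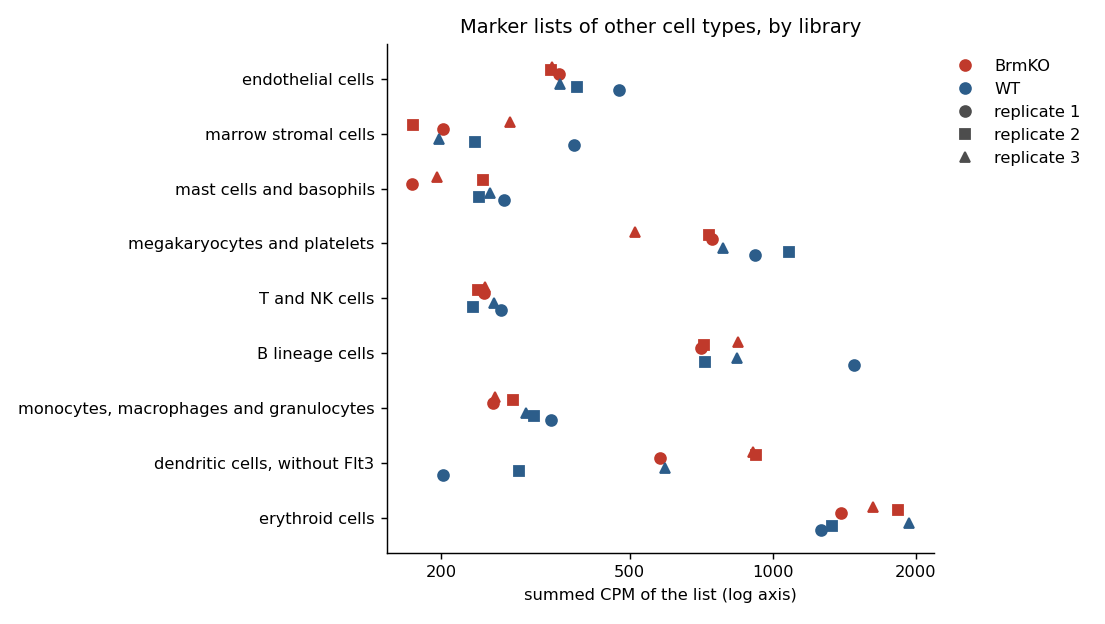
Summed CPM of marker lists of 9 other cell types, Flt3 left out of the dendritic cell list, in each library on a log axis, red for BrmKO above blue for WT. All BrmKO libraries lie below all WT libraries for endothelial, megakaryocyte and platelet, and monocyte, macrophage and granulocyte markers, while the dendritic cell sums meet, at 579 CPM in BrmKO replicate 1 and 594 CPM in WT replicate 3. Each sum is carried mainly by the most abundant genes of its list, and 11.1% of single genes tested also had groups that did not overlap.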

How the data were processed

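The deposited values are whole-number counts of reads per Ensembl gene, with a file for each library. The submitters' processing notes name GRCm38 and the tools bcl2fastq, FastQC, STAR, HTSeq and DESeq2. Tool versions, annotation release and strand setting: not given in the sources used here. The 5 closing rows that name no gene were left out of library sizes; they held 0.00292% (low quality) to 9.29% (outside genes) of a library. Symbols, positions and exon lengths came from GENCODE M21, matched for 55227 of 55487 identifiers, and near matches of transcripts from BLAST 2.17.0.

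BrmKO was compared with WT, 3 libraries each, by edgeR 4.0.16 (R 4.3.3), quasi-likelihood with the robust option, TMM and filterByExpr, which kept 15691 genes and all 10 marker genes. Adjusted p-values are Benjamini-Hochberg over those genes, threshold 0.05. CPM use TMM-scaled library sizes; TPM use the union of annotated exons. Log2 CPM for profiles used a prior count of 2. The level that 0 reads allow was 0.0828 to 0.106 CPM (3 counts); floors and counting variation cover counting error only. The fits were tested on simulated data first. DESeq2 1.42.0 and limma 3.58.1 (voom) were alternatives, beside other scaling, filters, left-out libraries and a replicate block. The dendritic cell list without Flt3 and the interferon list without Ly6e were added after seeing the data. Counts of every pair of libraries differed by more than sampling noise, with a chi-square over its degrees of freedom of 12.3 or more.

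The 10 genes, 6 gene lists and 9 marker lists were chosen with earlier results of these data known. Named were Smarca2, the 10 genes, up to 3 genes per gene list by smallest p (1 gene of the progenitor list is not reported here), and the 3 genes nearest to the marker gene of widest range, of those with a mean of at least 5 CPM; Mpo, Itgam, Cd3e, Ly6g, Cdh5, Ly6e, Ly9 and the genes named from marker lists were picked after their values were seen.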

Additional observations from a re-analysis of the deposited data

How the results depend on the processing

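In all 14 alternatives 0 of the 10 marker genes passed, and the lowest adjusted p of any was 0.0881, for Ctnnal1 without WT replicate 3. Of 140 refitted estimates for the 10 genes, 138 kept their direction; with a library left out, Kit lay between -0.015 (without WT replicate 1) and 0.13, and Fgd5 between -0.16 and 0.084 (without WT replicate 2). Over all genes, 22 passed, against 58 with no low-count filter, 142 with DESeq2, and 6 to 36 with a library left out (7, 6 and 36 without WT replicates 1, 2 and 3, 9 without BrmKO replicate 1). The causes were not tested. With the replicate block 25 genes passed. Same-numbered libraries had correlations of deviations of 0.0518, 0.00775 and 0.194, and not every library correlated best with its own number. The highest correlation was that of the libraries numbered 3, which also share more reads outside genes. Whether the numbers pair the mice cannot be told from 3 libraries per group. Under the block (edgeR) Ly6a had an adjusted p of 0.421 (unadjusted 0.0172), Ctnnal1 of 0.399 (unadjusted 0.0150) and Cd48 of 0.517 (unadjusted 0.0382). Without the block the unadjusted p was 0.142 for Ly6a, 0.0243 for Ctnnal1 and 0.217 for Cd48. At 130 to 451 reads a library, the coefficient of variation of Slamf1 was 40.3% in BrmKO and 20.4% in WT, where counting alone gives 6.14% and 5.24%. Its interval and that of Ctnnal1 allow a level more than 2-fold lower in BrmKO.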

Other observations

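Summed markers of T and NK, B lineage and erythroid cells overlapped between genotypes, and those of monocytes, macrophages and granulocytes did not. T and NK cell markers summed to 239 to 247 CPM in BrmKO and 234 to 268 CPM in WT, of which the granule gene Nkg7, also made by progenitors, took 225 to 235 CPM in BrmKO and 225 to 258 CPM in WT. B lineage markers summed to 705 to 847 CPM in BrmKO and 722 to 1485 CPM in WT, with WT replicate 1 highest. Erythroid markers summed to 1395 to 1841 CPM in BrmKO and 1262 to 1938 CPM in WT. None of these 3 lists had a gene past the threshold in edgeR, DESeq2 or limma-voom. They had 1, 2 and 0 genes at an unadjusted p under 0.05, against 5.85% of all genes. Monocyte, macrophage and granulocyte markers summed to 258 to 284 CPM in BrmKO and 303 to 341 CPM in WT, with 0 of 13 past the threshold in edgeR, 1 at an unadjusted p under 0.05 and Ccr2 alone called by DESeq2.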
